A study of Mus musculus with 17 samples.

Results

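The short transcripts described here are the annotated mouse transcripts of 50 to 99 nt, the size range of microRNA hairpins and box C/D small nucleolar RNAs. They were chosen by annotated size alone: of 38207 rows in the tables of small RNA and immunoprecipitated RNA (37991 Ensembl transcripts, 214 piRNA loci and 2 other entries), 2044 are Ensembl transcripts in this range, with a median size of 79 nt. Of them, 1562 had at least 1 count in the 9 libraries used here, and 482 had 0 counts in all 9. Many rows have identical counts: of 933 transcripts with at least 20 counts in all, 163 shared all 9 counts with another transcript. The largest group of rows with identical counts held 19. The 933 rows thus stand for 813 distinct patterns of counts. Their sequences were not compared, and where rows share reads, the value of each row is uncertain.

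Several kinds of RNA fall in this range. MicroRNAs are cut from a folded hairpin, first in the nucleus and then in the cytoplasm, and the mature strand guides an Argonaute protein to messenger RNAs. Box C/D small nucleolar RNAs guide methylation of ribosomal RNA, and transfer RNAs, which carry amino acids to the ribosome, can also be cut into fragments. Maelstrom, the protein encoded by Mael, acts in the germ cell piRNA pathway, in which PIWI proteins and their guide RNAs silence transposons.

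The files give transcript IDs without gene names, and 0 of the 2044 IDs matched the reference tables, so each transcript is given by its ID, with no gene name, role or sequence. The class as a whole can be placed only by size. In the RefSeq tables used here (GRCm38.p6), 815 of 1005 microRNA hairpins (81.1%) are 50 to 99 nt long, as are 426 of 430 transfer RNA genes and 389 of 1340 small nucleolar RNA genes (29.0%). Of the 2093 RefSeq genes in this range, 47.3% are microRNAs, 20.4% transfer RNAs and 18.6% small nucleolar RNAs. These are shares of that annotation, not of the transcripts counted here.

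All libraries came from testis of the mouse strain 129SvJae. Small RNA of 15 to 50 nt, cut from a gel, was sequenced from Mael-/- testis and wild-type (WT) testis, with 2 libraries (a and b) per genotype. RNA immunoprecipitated from WT testis with an antibody to MAEL gave 2 long-RNA libraries (a and b), made with fragmentation, and 1 library each of RNA of 50 to 150 nt and of 15 to 50 nt, while rabbit IgG gave 1 long-RNA library. Whether the libraries of one genotype or antibody stem from different animals is not stated in the labels. The p-values therefore cover only the spread between the libraries at hand, which may be technical. Animal age, the Mael allele and the number of testes per library are not given in the sources used here, and the level of the Mael transcript was not analysed here. In whole testis, fewer cells of a type and less RNA per cell cannot be told apart.

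Library totals were 21884714 and 4831638 counts for Mael-/- small RNA, 44416966 and 7776989 for WT small RNA, 5747210 and 10863053 for anti-MAEL long RNA, 7785650 for IgG long RNA, 68922710 for the 50 to 150 nt fraction and 172728187 for the 15 to 50 nt fraction. Levels are given in CPM, counts of each library scaled to the same total. Libraries of a group differed by more than sampling noise over these transcripts. The chi-square per degree of freedom was 17.0 in Mael-/- small RNA, 7.62 in WT small RNA and 23.7 in the anti-MAEL long-RNA libraries. Their counts were therefore not pooled, and the libraries of a group entered the tests as separate replicates.

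In small RNA, the short transcripts took a larger share of counts in Mael-/- testis than in WT testis. They took 0.396% and 0.584% of all counts in the Mael-/- libraries, against 0.102% and 0.106% in the WT libraries. Both Mael-/- libraries lay above both WT libraries. The mean share was 0.490% ± 0.133 in Mael-/- and 0.104% ± 0.00322 in WT (SD, n = 2 each), a ratio of 4.70. An exact two-sided permutation test gave p = 0.333, which is the smallest p that 2 libraries against 2 allow.

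The piRNA loci took less of the Mael-/- libraries, 71.9% ± 4.98 against 82.8% ± 0.552 in WT (SD, n = 2 each), and a share moves with whatever else is in the library. Over counts on Ensembl transcripts alone, the short transcripts took 1.61% and 1.85% in Mael-/- against 0.608% and 0.606% in WT, a ratio of 2.85. The part of library composition in the larger share was not tested beyond this change of denominator. The ratio of the same shares over all counts was 8.72 for transcripts under 50 nt, 0.849 for those of 100 to 200 nt and 2.16 for those over 200 nt, so neighbouring size classes did not move alike. At the upper size limit, the 233 transcripts of 95 to 99 nt took 0.0172% and 0.0259% of Mael-/- counts against 0.0104% and 0.0102% of WT counts. Just outside it, the 384 transcripts of 100 to 104 nt took 0.165% and 0.207% in Mael-/- against 0.0386% and 0.0442% in WT.

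**Figure D1:**
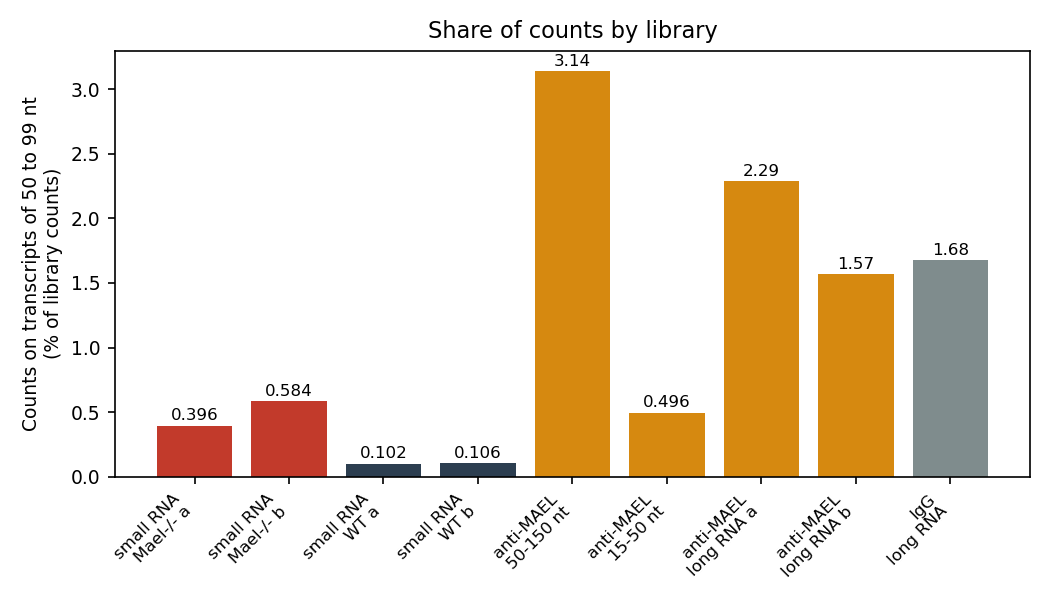
Share of all counts that fell on transcripts of 50 to 99 nt, in percent, with 1 bar per library. Mael-/- small RNA stood at 0.396% and 0.584% against 0.102% and 0.106% in WT, and the 50 to 150 nt fraction held the highest share, 3.14%.

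Relative to their annotated length, the short transcripts took more than their share of counts in small RNA and in both size fractions, and in long RNA only through 1 transcript. They make up 0.273% of the annotated length of all Ensembl transcripts. Their share of Ensembl counts was 5.90 and 6.78 times that in Mael-/- small RNA, against 2.23 and 2.22 times in WT small RNA. It was 12.5 times in the 50 to 150 nt fraction and 2.55 times in the 15 to 50 nt fraction. In the anti-MAEL long-RNA libraries it was 9.11 and 6.15 times, against 6.25 times with IgG. Without the most counted transcript of each library, it was 0.508 and 0.411 times with anti-MAEL against 0.520 times with IgG in long RNA, where the direction thus turned, and 1.98 to 10.8 times in the other 6 libraries.

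Many short transcripts had a count in small RNA, but a few of them held much of the counts. In Mael-/- libraries 607 and 535 of the 2044 had a count, against 595 and 397 in WT libraries, and 327 had a count in all 4. The 10 most counted held 52.6% and 47.2% of the counts on short transcripts in Mael-/-, against 45.6% and 40.0% in WT. The order of levels was similar in both genotypes, with a Spearman correlation of 0.805 across 270 transcripts. It is given as a description, since these transcripts share libraries and may share reads. Of the 20 most counted in each genotype, 15 were shared.

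**Figure D2:**
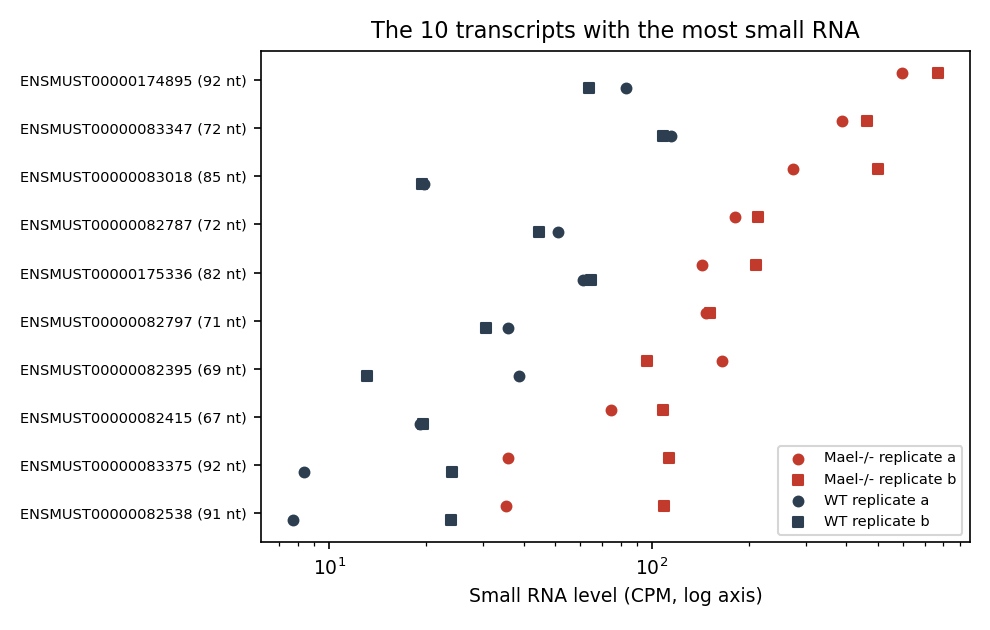
Small RNA level (CPM, log axis) of the 10 short transcripts with the highest mean over 4 libraries, with 1 point per library. All 10 lie higher in both Mael-/- libraries than in both WT libraries on this scale, which takes no account of the further scaling used in the test.

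The transcript with the highest level in small RNA, also per length (41.0 CPM per 10 nt), was ENSMUST00000174895, of 92 nt. It had 595 and 767 CPM in Mael-/- libraries against 83.3 and 64.0 CPM in WT libraries, with no overlap between genotypes. The log2 fold change was 1.96 ± 0.50 (SE; edgeR quasi-likelihood test, adjusted p = 0.0439). This call was lost with another scaling (RLE size factors, adjusted p = 0.0807), with no filter on low counts (adjusted p = 0.176) and without WT replicate a or b (adjusted p = 0.565 and 0.523).

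The transcript next in level, ENSMUST00000083347 of 72 nt (37.3 CPM per 10 nt), had 387.9 and 465.1 CPM in Mael-/- against 114 and 108 CPM in WT. Its log2 fold change in the edgeR fit was 0.72 ± 0.47 (SE), with an adjusted p of 0.319, so it did not pass the test. It passed under library totals (log2 fold change 1.94, adjusted p = 0.00225) and without Mael-/- replicate b (adjusted p = 0.00296). Its CPM values did not overlap between genotypes, and the fit's further scaling made the fitted change smaller than the CPM ratio. ENSMUST00000083018, of 85 nt, had 273 and 502 CPM in Mael-/- against 19.7 and 19.4 CPM in WT. It rose, with a log2 fold change of 3.02 ± 0.48 (SE; edgeR, adjusted p = 0.00764), and lost the call without WT replicate a (adjusted p = 0.394) or b (adjusted p = 0.189).

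The other 7 leaders by level did not pass the test, though 5 of them did under library totals and 4 without Mael-/- replicate b. ENSMUST00000175336, of 82 nt, had 143 and 210 CPM in Mael-/- against 61.1 and 64.7 CPM in WT, with a log2 fold change of 0.25 ± 0.43 (SE; edgeR, adjusted p = 0.721). ENSMUST00000082787 (72 nt), ENSMUST00000082797 (71 nt), ENSMUST00000082395 (69 nt) and ENSMUST00000082415 (67 nt) had fitted log2 fold changes of 0.82, 0.96, 1.15 and 0.99, with adjusted p-values of 0.252, 0.190, 0.261 and 0.138 in edgeR. ENSMUST00000083375 (92 nt) and ENSMUST00000082538 (91 nt) had near-identical counts, so their reads may be shared. Both were higher in replicate b of each genotype: the first had 35.8 and 113 CPM in Mael-/- against 8.33 and 24.0 CPM in WT.

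Tested one by one, 23 of the 215 short transcripts with enough counts rose in Mael-/- small RNA and 10 fell (edgeR quasi-likelihood test, adjusted p from 0.00210 to 0.0490). Of all 9906 features in the fit, 3.82% were called higher and 3.49% lower, against 10.7% and 4.65% of the short transcripts tested. All 33 had no overlap in CPM between genotypes, and they stand for 30 distinct patterns of counts. The Mael-/- CPM values were all above the WT values for 85.1% of the short transcripts tested, beside 66.5% of all features. The median log2 fold change was 0.97 over the short transcripts and 0.15 over all features tested. Values were above 0 for 178 of the 215 (82.8%), beside 54.6% of all features tested.

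These counts depend on who entered the fit and how it was scaled. Of the 215, 83 passed the filter on low counts through the Mael-/- libraries alone and 6 through WT alone, so the 215 do not stand for all 2044. Among the 123 that passed in both genotypes, 99 had a log2 fold change above 0, with a median of 0.92, 18 rose and 5 fell. The share called among all features that passed in both genotypes was not computed, so these calls have no matching background. Scaled to library totals alone, 108 short transcripts (50.2%) were called, all higher and 0 lower, beside 24.7% of all features higher and 1.40% lower, while the median over all features moved to 1.42. With RLE size factors 11 (5.12%) were higher and 10 (4.65%) lower, beside 2.28% and 3.50% of all features. With no filter 750 short transcripts were tested, and 7 (0.933%) were higher and 9 (1.20%) lower, beside 0.963% and 1.03% of all features, so the higher share of calls among short transcripts was not seen there.

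All 23 higher and all 10 lower kept their direction under library totals, RLE size factors and DESeq2, and 0 of the 10 lower kept the call under library totals. Single libraries also set the number of calls, in fits that leave 1 library in a genotype. In them the share called lower was near or under that of all features, except without WT replicate b, where it was above. Without WT replicate a 3 were called (2 higher, 1 lower), without WT replicate b 11 (3 higher, 8 lower), without Mael-/- replicate b 78 (67 higher, 11 lower) and without Mael-/- replicate a 33 (13 higher, 20 lower). The share of short transcripts called higher was 0.935% without WT replicate a, beside 0.258% of all features, and 1.07% without WT replicate b, beside 0.977%. It was 26.1% without Mael-/- replicate b, beside 10.3% of all features, and 6.599% without Mael-/- replicate a, beside 3.87%.

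**Figure D3:**
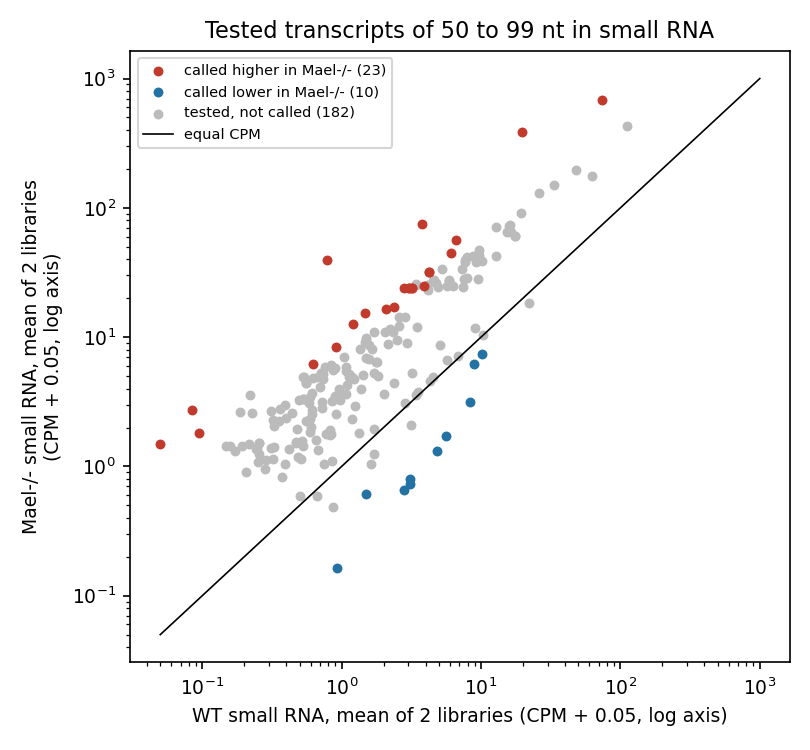
Mean small RNA level in Mael-/- (vertical) against WT (horizontal) for the 215 short transcripts tested, in CPM plus 0.05 on log axes, with the 23 called higher in red and the 10 called lower in blue. Most points lie above the line of equal CPM, and the 10 called lower lie below it.

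Counting transcripts that averaged 5 CPM or more, the largest called rise was in ENSMUST00000171980, of 69 nt. It had 38.8 and 39.9 CPM in Mael-/- libraries against 0.968 and 0.514 CPM in WT libraries, or 849 and 193 counts against 43 and 4. The replicates of each genotype lay close together and far from the other genotype. The log2 fold change was 4.32 ± 0.53 (SE; edgeR, adjusted p = 0.00210), and this call was kept in all 11 alternatives run. It passed the filter on low counts through the Mael-/- libraries alone, where it is high, so it could enter the fit only as a transcript that differed. In the anti-MAEL immunoprecipitates it had 0.856 CPM at 50 to 150 nt and 8.46 CPM at 15 to 50 nt, a ratio of the 15 to 50 nt to the 50 to 150 nt fraction of 9.88 (7.62 to 13.0). The next largest rise was that of ENSMUST00000083018, given above.

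Among those lowered, ENSMUST00000175561, of 67 nt, had 2.83 and 3.31 CPM in Mael-/- against 9.55 and 7.07 CPM in WT. Its log2 fold change was -2.65 ± 0.45 (SE; edgeR, adjusted p = 0.0108). Under library totals it was -1.45 with an adjusted p of 0.0543, and without WT replicate a the adjusted p was 0.102. ENSMUST00000177427, of 96 nt, had 4.30 and 8.07 CPM in Mael-/- against 8.74 and 9.001 CPM in WT, so its groups nearly met on the CPM scale. Its log2 fold change was -1.82 ± 0.39 (SE, edgeR, adjusted p = 0.0246). The edgeR call was lost under library totals (-0.55, adjusted p = 0.351) and with no filter on low counts (-1.87, adjusted p = 0.0556). The call was also lost without WT replicate a (log2 fold change -1.73 ± 0.71, SE) and without WT replicate b (-2.02 ± 0.64, SE).

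Across all 23 that rose, the median level was 17.1 and 31.0 CPM in the Mael-/- libraries, against 2.52 and 3.47 CPM in the WT libraries. Across the 10 that fell, it was 0.868 and 0.828 CPM in Mael-/-, against 4.50 and 2.64 CPM in WT. The transcripts that fell were thus counted at low levels: only 3 of them, beside 18 of those that rose, had a mean of at least 5 CPM. Log2 fold changes ran from 1.48 to 6.91 among those that rose and from -3.40 to -1.66 among those that fell. The highest of these belongs to a transcript with 0 counts in both WT libraries, so its fitted value depends on the fit's prior count.

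Short transcripts were most frequent in the anti-MAEL fraction of 50 to 150 nt, and its contents differed from those of the 15 to 50 nt fraction. Each fraction is 1 library, so their difference has no replicate check, and no IgG library of either size was used here. The short transcripts took 3.14% of counts at 50 to 150 nt (exact binomial interval at 95% confidence, 3.136 to 3.144) and 0.496% at 15 to 50 nt (0.495 to 0.497). Such intervals cover counting error only, because without molecular identifiers several reads can come from one molecule. Transcripts of 100 to 200 nt took 71.2% of the 50 to 150 nt fraction, so the short transcripts were a small part of it.

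At 50 to 150 nt the short transcript with the most counts was ENSMUST00000158458, of 62 nt, with 301805 counts, 4379 CPM and 13.9% of the counts on short transcripts. It had 306 counts and 1.77 CPM at 15 to 50 nt, a ratio of 2472 between the fractions (counting interval 2210 to 2774). In small RNA it was at 2.29 and 4.14 CPM in Mael-/- against 0.833 and 1.03 CPM in WT, and did not pass the test (edgeR, adjusted p = 0.547). ENSMUST00000174895, the leader in small RNA, had 1988 CPM at 50 to 150 nt and 3.26 CPM at 15 to 50 nt, a ratio of 610 (561 to 664). It was thus abundant both in total small RNA and in the larger fraction, and rare in the immunoprecipitated fraction of the same nominal size as the small RNA libraries.

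The other transcripts with the most counts at 50 to 150 nt were ENSMUST00000116813 (62 nt), ENSMUST00000158670 (86 nt) and ENSMUST00000157899 (69 nt), with 1298, 1179 and 1034 CPM there against 0.544, 0.764 and 0.567 CPM at 15 to 50 nt. ENSMUST00000116813 was almost not counted in small RNA, with 8 and 5 counts in Mael-/- against 1 and 0 in WT. ENSMUST00000157899 was counted there, with 40.3 and 46.4 CPM in Mael-/- against 9.64 and 9.52 CPM in WT. The highest ratio of the fractions, 2732 (2126 to 3571), was that of ENSMUST00000082608, of 70 nt, with 965 CPM at 50 to 150 nt and 0.353 CPM at 15 to 50 nt.

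At 15 to 50 nt, all 5 of the most counted short transcripts were 95 to 98 nt long. ENSMUST00000176664 (95 nt), ENSMUST00000116950 (97 nt) and ENSMUST00000176507 (96 nt) had 26.1, 19.96 and 6.11 CPM at 50 to 150 nt, against 267, 263 and 251 CPM at 15 to 50 nt. In small RNA ENSMUST00000176664 had 8.50 and 5.59 CPM in Mael-/- against 7.45 and 6.04 CPM in WT, and these overlap. After the fit's scaling the log2 fold changes of the 3 were -1.05, -0.92 and -1.38, and they did not pass the test (edgeR, adjusted p = 0.175, 0.211 and 0.0899). ENSMUST00000174949 (96 nt) had 1.20 CPM at 50 to 150 nt against 168 CPM at 15 to 50 nt. ENSMUST00000174968 (98 nt) had 53 counts at 50 to 150 nt against 28856 at 15 to 50 nt, a ratio of the smaller to the larger fraction of 217 (166 to 290), and 0 counts in all 4 small RNA libraries. For the deepest of those, WT replicate a, a count of 0 allows up to 0.0675 CPM. ENSMUST00000175108, of 78 nt, was also among the 3 with the lowest share at 50 to 150 nt, with 0.900 CPM there against 111 CPM at 15 to 50 nt.

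**Figure D4:**
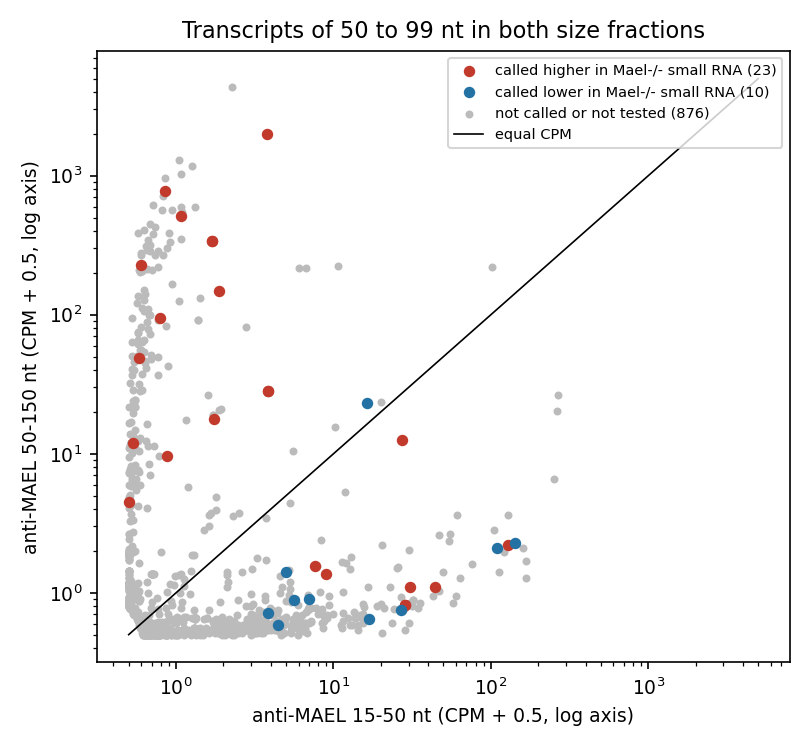
Level of each of 909 short transcripts in the anti-MAEL fraction of 50 to 150 nt (vertical) against that of 15 to 50 nt (horizontal), in CPM plus 0.5 on log axes. Points run along both axes, and few are high in both. Of the 33 called in small RNA, 15 of the 23 higher (red) and 1 of the 10 lower (blue) lie above the line of equal CPM. So do 147 of all 209 that were tested in small RNA, so the 15 of 23 set the higher ones apart little.

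Over the 909 short transcripts with at least 20 counts in the 2 fractions together, levels in one fraction said little of levels in the other. The Spearman correlation of log2 CPM across these transcripts was -0.286, where a transcript needed counts in only 1 fraction to be included. None of the 20 most counted in one fraction was among the 20 most counted in the other (0 shared). The median log2 ratio of 50 to 150 nt over 15 to 50 nt, with a pseudocount of 0.5 CPM, was -0.39, and the middle 50% of transcripts lay between -2.19 and 1.86. This median depends on the settings: it was -1.19 with a pseudocount of 0.1 CPM and -1.95 with at least 200 counts. With a pseudocount of 5 CPM it was -0.048. With no minimum count it was 0 over all 2044, which include the 482 with 0 counts in all libraries. Of the 909, 392 were higher at 50 to 150 nt and 517 at 15 to 50 nt, and in each direction a few transcripts held most of the counts: 14 held the first 50% of those at 50 to 150 nt and 19 of those at 15 to 50 nt.

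The balance of the fractions moved with transcript size. The share of transcripts higher at 50 to 150 nt was 52.6% at 50 to 59 nt (19 transcripts), 59.3% at 60 to 69 nt, 48.7% at 70 to 79 nt, 35.5% at 80 to 89 nt and 35.3% at 90 to 99 nt. Transcripts of 60 to 69 nt took 37.2% of the counts on short transcripts at 50 to 150 nt and 6.76% at 15 to 50 nt. Transcripts of 90 to 99 nt took 15.3% at 50 to 150 nt and 48.9% at 15 to 50 nt. Single transcripts weigh on these shares: at 50 to 150 nt, ENSMUST00000158458 (62 nt) alone took 13.9%. At 15 to 50 nt, ENSMUST00000176664 (95 nt), ENSMUST00000116950 (97 nt) and ENSMUST00000176507 (96 nt) took 5.39%, 5.30% and 5.06%. In small RNA the 60 to 69 nt class took a mean of 16.7% in Mael-/- and 17.7% in WT, and the 90 to 99 nt class 25.5% in Mael-/- and 25.1% in WT, so the size profile of the counts was close between genotypes while their total was not.

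**Figure D5:**
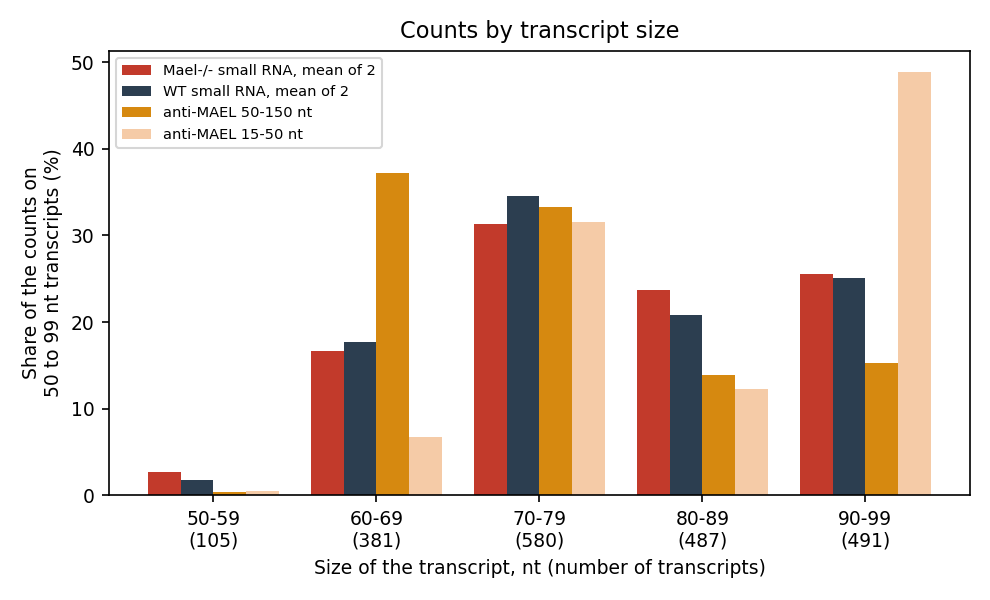
Share of the counts on short transcripts by annotated size, in percent, for Mael-/- and WT small RNA (means of 2 libraries) and for the anti-MAEL fractions of 50 to 150 nt and 15 to 50 nt (1 library each). Both genotypes have similar profiles, the 50 to 150 nt fraction is highest at 60 to 69 nt (37.2%) and the 15 to 50 nt fraction at 90 to 99 nt (48.9%).

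The anti-MAEL fraction of 15 to 50 nt and WT small RNA share a nominal size range, but the short transcripts ranked differently in them. Across 690 transcripts the Spearman correlation of log2 CPM was -0.016, and 2 of the 20 most counted in each were shared. The median log2 ratio of the immunoprecipitate over the mean of the WT libraries was 1.14, and 0.19 to 2.43 with pseudocounts of 5 and 0.1 CPM. These transcripts had at least 20 counts over the immunoprecipitate and the WT libraries together. A transcript could thus enter through the deeper immunoprecipitate alone, where it is high, so the median cannot be read as enrichment. Of all 2044 transcripts, 798 had counts in a size-selected immunoprecipitate and in none of the small RNA libraries, which had lower totals than those immunoprecipitates. Across 501 transcripts, chosen by the same rule with the 50 to 150 nt fraction, the correlation of that fraction with WT small RNA was 0.261.

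The ratio of Mael-/- to WT small RNA was set beside the balance of the fractions, a split chosen after the data were seen and given as a description with no test. The 392 transcripts higher at 50 to 150 nt took 0.336% and 0.504% of Mael-/- small RNA counts against 0.0775% and 0.0838% of WT counts, a ratio of 5.21. The 517 higher at 15 to 50 nt took 0.0548% and 0.0748% in Mael-/- against 0.0228% and 0.0209% in WT, a ratio of 2.97. Both Mael-/- libraries were above both WT libraries in each set.

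Among the transcripts that passed the filter in both genotypes, those higher at 50 to 150 nt had a median CPM ratio of Mael-/- over WT of 4.72 (middle 50%, 3.83 to 6.13). Of these, 80 of 84 (95.2%) had both Mael-/- values above both WT values. Those higher at 15 to 50 nt had a median ratio of 1.79 (1.05 to 6.10), and 21 of 36 (58.3%) were above and 6 below without overlap. The 66.5% of all features given above also covers features that passed in 1 genotype alone, so it is no matching background. In the edgeR fit, 11 of the 84 rose and 1 fell, with a median log2 fold change of 0.96. Of the 36, 7 rose and 4 fell, with a median of -0.43, whose sign is thus opposite to that of the unscaled CPM ratio. The matching shares of all features past the filter in both genotypes, called or without overlap in either direction, were not computed. Across 120 transcripts the log2 ratio of the fractions and the fitted log2 fold change had a Spearman correlation of 0.287, and size and the fold change one of -0.138. Of the 10 transcripts that fell, 9 were higher at 15 to 50 nt, beside 62 of all 209 tested. The 10 had 580 to 24382 counts at 15 to 50 nt.

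In the long-RNA libraries, the short transcripts took 2.29% and 1.57% of anti-MAEL counts against 1.68% of IgG counts (exact binomial interval 1.666 to 1.684). IgG thus lay between the anti-MAEL libraries. A single transcript made up most of this: ENSMUST00000175336, of 82 nt, held 94.4% and 93.3% of the counts on short transcripts with anti-MAEL and 91.7% with IgG. It had 21624 and 14631 CPM with anti-MAEL against 15358 CPM with IgG, with a log2 fold change of 0.67 ± 2.39 (SE; edgeR, adjusted p = 0.998). Without it the short transcripts took 0.128% and 0.105% of anti-MAEL counts against 0.139% of IgG counts. The same transcript was much lower in the size-selected libraries, at 224 CPM at 50 to 150 nt and 10.2 CPM at 15 to 50 nt.

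The next in the long-RNA libraries was ENSMUST00000122630, of 87 nt, with 745 and 447 CPM with anti-MAEL against 753 CPM with IgG (log2 fold change 0.11 ± 0.75, SE; edgeR, adjusted p = 0.998). ENSMUST00000174895 had 170 and 56.3 CPM with anti-MAEL against 66.5 CPM with IgG, so IgG lay between the anti-MAEL libraries, and its log2 fold change was 1.27 ± 0.71 (SE; edgeR, adjusted p = 0.894). Of the 1562 short transcripts with any count, 1286 had 0 counts in all 3 long-RNA libraries, which were made from fragments of 120 to 200 bp, longer than these transcripts.

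No short transcript was called over IgG: 0 of 80 tested by edgeR's quasi-likelihood test passed, 0 had an unadjusted p under 0.05, and DESeq2 called 0, beside 1.28% of the 16066 features in the fit that were called higher. Over so few rows, 0 calls cannot be told apart from that share of all features. The single IgG library is assumed to vary like the anti-MAEL libraries. Levels with anti-MAEL and IgG followed each other, with a Spearman correlation of 0.941 across 81 transcripts. The 80 rows hold only 46 distinct patterns, and 17 transcripts of 90 nt had the same 46 and 119 anti-MAEL counts and 125 IgG counts. At 50 to 150 nt those 17 had 664 to 793 counts each.

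Another 47 of the 80 were transcripts of 67 to 71 nt, 38 of them of 71 nt, with 0 counts in anti-MAEL replicate a and a median of 28 counts in replicate b, against a median of 9 counts with IgG. A count of 0 in replicate a allows up to 0.522 CPM. These rows had a median fitted log2 fold change of 0.43, and the other 33 had one of -0.44, with 11 above 0. The median over all 80 was 0.30, beside 0.02 over all features, and most of these rows were thus counted in only 1 of the 2 anti-MAEL libraries.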

How the data were processed

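The deposited files hold whole-number counts per feature, not normalized by the authors. Per the submitters' processing notes, the tools were TopHat2 2.0.7, Bowtie2 2.0.6 and CASAVA 1.8, and the genome build mm9; which step each served is not told. Per the labels' protocols, the small RNA and size-selected libraries keep the strand and the long-RNA libraries do not. Nothing used here tells whether counting respected the strand or where reads matching more than one transcript went, so values of near-identical, antisense and overlapping transcripts are uncertain. The mRNA and ribosome footprint tables were not used, since nearly all short transcripts have no coding size there.

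Library totals behind CPM hold 1 entry per piRNA locus, its most counted. Intervals are exact binomial (Clopper-Pearson) at 95% confidence, also for ratios of counts, and a count of 0 allows up to 3 counts per library. The test was edgeR 4.0.16 under R 4.3.3 (quasi-likelihood test, TMM scaling, filterByExpr, Benjamini-Hochberg adjustment over all features tested, adjusted p under 0.05), for genotype over 4 small RNA libraries with no replicate block and for antibody over 3 long-RNA libraries. The smallest CPM the genotype filter accepted was 0.674. DESeq2 1.42.0 was an alternative test, and other scalings, filters, pseudocounts and left-out libraries were tried. Log2 ratios without a fit used CPM plus 0.5. The tests were checked on simulated counts. Other values came from Python 3.11.15 (pandas 2.3.3, scipy 1.17.1, numpy 2.4.6, matplotlib 3.10.9).

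Transcripts named in the text are the 10 with the highest mean CPM in small RNA, the 5 with the most counts in each size fraction, the 3 highest with anti-MAEL and with IgG in long RNA, the 3 highest and 3 lowest ratios of the fractions, and, because the files pair no gene names with IDs, at most 2 called transcripts in each direction, averaging 5 CPM or more without overlap. The transcripts and lists were chosen with earlier results of these data known.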

Additional observations from a re-analysis of the deposited data

How the results depend on the processing

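Of 33 short transcripts called in small RNA, the count was 108 with library totals alone, 21 with RLE size factors, 16 with no filter on low counts, and 3 to 78 with 1 library left out. It was 31 with DESeq2 (9.77% higher and 4.65% lower, beside 4.26% and 6.17% of all features). With a stricter filter it was 40 of 80 tested (42.5% and 7.50%, beside 20.5% and 22.6% of all features). It was 39 with all deposited entries (13.5% and 4.65%, beside 5.79% and 5.05%) and 30 with identical rows counted once. With the replicate block 142 were called (116 higher, 26 lower; 54.0% and 12.1%, beside 23.4% and 17.7% of all features), among them 7 of the 8 leaders by level that did not pass without it. The deviations of same-lettered libraries correlated at 0.506 over 9906 features. In both genotypes replicate a had the higher total, so pairing cannot be told apart from depth here. The labels do not say that a letter marks a shared litter, batch or day, and there are only 2 pairs, so the block was kept as an alternative. The median log2 fold change of 0.97 was 2.22 with library totals and 0.64 to 1.04 with 1 library left out. The ratio of shares, 4.70, ranged from 3.80 to 5.61 with 1 library left out and was 5.10 with every deposited entry and 4.36 without the most counted transcript. The median log2 ratio of the fractions, -0.39, was -1.19 with a pseudocount of 0.1 CPM and -1.95 with at least 200 counts. It was -0.048 with a pseudocount of 5 CPM and 0 with no minimum count. With 1 library left out, the log2 fold changes of ENSMUST00000175336 and ENSMUST00000082395, neither called with all libraries, ranged from -0.16 to 0.49 and from -0.061 to 2.39, and both were negative only without Mael-/- replicate a. The cause of these changes was not tested. Over IgG, 0 were called in all 6 alternatives run; leaving out an anti-MAEL library leaves 1 against 1, with no test. A count of 0 allows up to 0.621 CPM in Mael-/- replicate b and 0.386 CPM in WT replicate b, and lower levels were not detectable there.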
